A study of Mus musculus with 11 samples.

Results

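Expression of 10 macrophage scavenger receptors and markers was examined in mouse bone marrow cells that acquired mutant CSF3R and mutant CEBPA in different orders. The genes are Msr1, Marco, Cd36, Olr1, Stab1, Cd163, Mrc1, Mertk, Cd68 and Adgre1. They were picked by gene symbol, as receptors and markers that define macrophages, and matched to the Ensembl identifiers of the deposited count table. All 10 were found among its 51912 genes, and all 10 passed the filter on low counts that left 15703 genes for testing.

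The table holds RNA-seq counts for 11 libraries in 3 groups. All groups came from bone marrow of female C57BL/6 mice transduced with retroviruses, the study's order-of-acquisition system using mice that carry a tamoxifen-inducible Cre (ERT2-Cre) at the Rosa26 locus, and all carried the activating receptor mutation CSF3R T618I. CSF3R-only cells (n = 4) expressed it from a constitutive GFP vector and carried an empty inducible vector. CSF3R-first cells (n = 3) had the same constitutive CSF3R T618I, with the C-terminal mutant CEBPA V314VW in the inducible vector. CEBPA-first cells (n = 4) had the reverse arrangement, constitutive CEBPA V314VW with inducible CSF3R T618I. Lineage-negative cells positive for both vectors were sorted and then kept for 48 h in medium without cytokines, with 4-hydroxytamoxifen, which activates a Cre recombinase and so switches on the inducible vector. Expression from a retrovirus is not the level of the endogenous gene, and CEBPA V314VW was not measured alone here. Nothing in the sample labels says that replicates came from separate animals or cultures, so the p-values measure the spread between these libraries, which may be technical.

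Macrophages clear modified lipoproteins, microbes, spent proteins and dying cells through surface receptors of several unrelated families that share broad ligand binding. Class A receptors (Msr1 and Marco) have a collagenous stem, Cd36 is a class B receptor, Olr1 is a lectin-like receptor, and Stab1, Cd163 and Mrc1 are large endocytic receptors. Mertk is a receptor tyrosine kinase that binds apoptotic cells through bridging proteins, while Cd68 (macrosialin, a lysosomal glycoprotein) and Adgre1 (the F4/80 antigen) are the usual markers of mouse macrophages. Many of these genes switch on as progenitors mature along the monocyte and macrophage branch, where PU.1 and C/EBP factors act.

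Because most of the genes moved in the same direction, the 250 bases before their start sites were compared. RefSeq start sites (build GRCm38.p6) were matched for 8 of the 10 genes, Msr1 and Adgre1 being the other two. Windows of 4 genes are shown: Stab1 and Cd68 as an endocytic receptor and a marker that fell, Mrc1 as the window with the most PU.1 core matches, and Cd163 as the gene that rose. Capitals mark the PU.1 core GAGGAA and the C/EBP core TTGCNNAA, searched on both strands, so that TTCCTC is the PU.1 core on the opposite strand. Each window is written 5′ to 3′ in the direction of its gene.
Stab1 (chr14:31168642-31168891, minus strand): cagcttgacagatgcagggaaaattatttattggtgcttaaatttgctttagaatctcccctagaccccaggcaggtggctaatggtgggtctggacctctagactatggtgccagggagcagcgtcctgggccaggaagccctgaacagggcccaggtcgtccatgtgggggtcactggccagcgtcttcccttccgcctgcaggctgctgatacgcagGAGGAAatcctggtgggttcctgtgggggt
Cd68 (chr11:69666171-69666420, minus strand): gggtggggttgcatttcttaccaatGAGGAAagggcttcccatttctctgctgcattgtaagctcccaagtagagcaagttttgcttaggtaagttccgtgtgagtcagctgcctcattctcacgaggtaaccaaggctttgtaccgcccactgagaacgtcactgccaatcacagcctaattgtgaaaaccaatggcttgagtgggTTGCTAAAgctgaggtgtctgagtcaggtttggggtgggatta
Mrc1 (chr2:14229164-14229413, plus strand): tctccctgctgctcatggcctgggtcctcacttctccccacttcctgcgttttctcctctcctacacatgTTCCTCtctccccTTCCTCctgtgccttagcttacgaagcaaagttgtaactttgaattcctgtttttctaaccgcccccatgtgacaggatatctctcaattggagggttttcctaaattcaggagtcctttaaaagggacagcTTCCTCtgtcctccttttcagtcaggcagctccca
Cd163 (chr6:124304401-124304650, plus strand): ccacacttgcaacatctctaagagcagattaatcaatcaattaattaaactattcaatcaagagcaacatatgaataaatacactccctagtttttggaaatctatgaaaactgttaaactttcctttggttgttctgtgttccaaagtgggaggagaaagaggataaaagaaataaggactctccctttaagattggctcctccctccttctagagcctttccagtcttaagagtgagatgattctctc

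The PU.1 core was present in 5 of the 8 windows (Marco, Olr1, Stab1, Mrc1 and Cd68), against 23.3% of 32851 windows of the same length over all genes. Mrc1 held 3 matches, starting 180, 167 and 35 bases before the start site. The C/EBP core was found only in Cd68 among the 8 windows, 43 bases before its start site, and in 9.56% of all windows. The AP-1 sequence TGANTCA occurred in Olr1 and at 2 places in Cd68, against 6.75% of all windows, and the STAT sequence TTCNNNGAA in none of the 8, against 7.02%. E-boxes (CANNTG) were present in 5 of 8 windows and in 66.2% of all. The Cd163 window held neither core. These are matches of letters and not binding sites.

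Total counts per library ranged from 47905747 to 72268346. Values are read counts scaled to library size after TMM normalization (CPM, counts per 1000000 reads). Where the 3 group values of a gene or list are given without names, CSF3R-only comes first, then CSF3R-first, then CEBPA-first. Significance was tested across all genes, and a gene was called when edgeR's quasi-likelihood test gave an adjusted p under 0.05 together with a log2 fold change of at least 1 in size. Within the CSF3R-first group, replicate A stood apart for these genes, though not for these alone. Over all genes, the chi-square per degree of freedom was 99.1 and 74.5 for A with B and C, beside 22.2 for B with C. Replicate A was the highest of the 3 libraries in 9 of the 10 genes and in 20 of 23 further macrophage and monocyte markers, against 40.2% of all genes tested. In the CEBPA-first group, replicate D was the lowest in all 10 genes and in 15 of the 23 markers, against 35.3% of genes tested. Calls among the 10 genes that change without these libraries are given with both values. The mouse genes of the transgenes were at 87.2 ± 6.98, 131 ± 10.4 and 167 ± 6.12 CPM (SD) for Cebpa and at 846 ± 94.9, 516 ± 118 and 153 ± 16.1 CPM for Csf3r over the 4, 3 and 4 libraries of the groups. The paper measured the transgenes as human CEBPA and CSF3R. Whether transgene reads were counted under the mouse genes was not tested.

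Macrophage receptor genes were mostly lower when mutant CEBPA came first than with mutant CSF3R alone. Of the 10 genes, 7 were called lower (Msr1, Marco, Stab1, Mrc1, Mertk, Cd68 and Adgre1), beside 19% of all genes tested. Cd163 was called higher, beside 8.07% of all genes. Cd36 and Olr1 were not called. The median log2 fold change of the 10 genes was -1.97, beside -0.00446 over all genes tested. The group means ran from 392 down to 80.5 CPM for Adgre1 and from 186 down to 11.9 CPM for Stab1. In these bulk libraries, fewer cells of a macrophage type and less RNA per cell cannot be told apart.

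The mutation orders were compared directly as CEBPA-first against CSF3R-first. These groups also differ in which mutation the constitutive vector carried and in how long each mutation was expressed. Order, vector and duration cannot be told apart here. Msr1, Marco, Stab1, Mertk, Cd68 and Adgre1 were called lower, 6 of the 10 genes, beside 10.3% of all genes tested. Cd163 was called higher, beside 2.57%. The median log2 fold change of the 10 genes was -1.07, beside 0.000525 for all genes. Mertk and Cd68 were near the fold threshold in this comparison. Both were lost without CSF3R-first replicate A, where their log2 fold changes were -0.75 and -0.73, and without CEBPA-first replicate D, where they were -0.85 and -0.95. Mrc1 was gained without CEBPA-first replicate C, at -1.07.

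CSF3R-first against CSF3R-only gave 2 calls among the 10 genes, Msr1 and Stab1, both lower, beside 4.53% of all genes tested. No gene of the 10 was called higher, beside 2.13%. The median log2 fold change was -0.86, beside -0.02 for all genes. This count rests on single libraries. Without CSF3R-first replicate A, 8 of the 10 genes were called lower, the additional genes being Marco (-1.96), Olr1 (-1.20), Mrc1 (-1.20), Mertk (-1.31), Cd68 (-1.13) and Adgre1 (-1.19). Without CSF3R-first replicate B or replicate C the count was 1, since Stab1 moved to -0.97 and to -0.995. The 3 comparisons share groups and are not independent of each other.

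**Figure D1:**
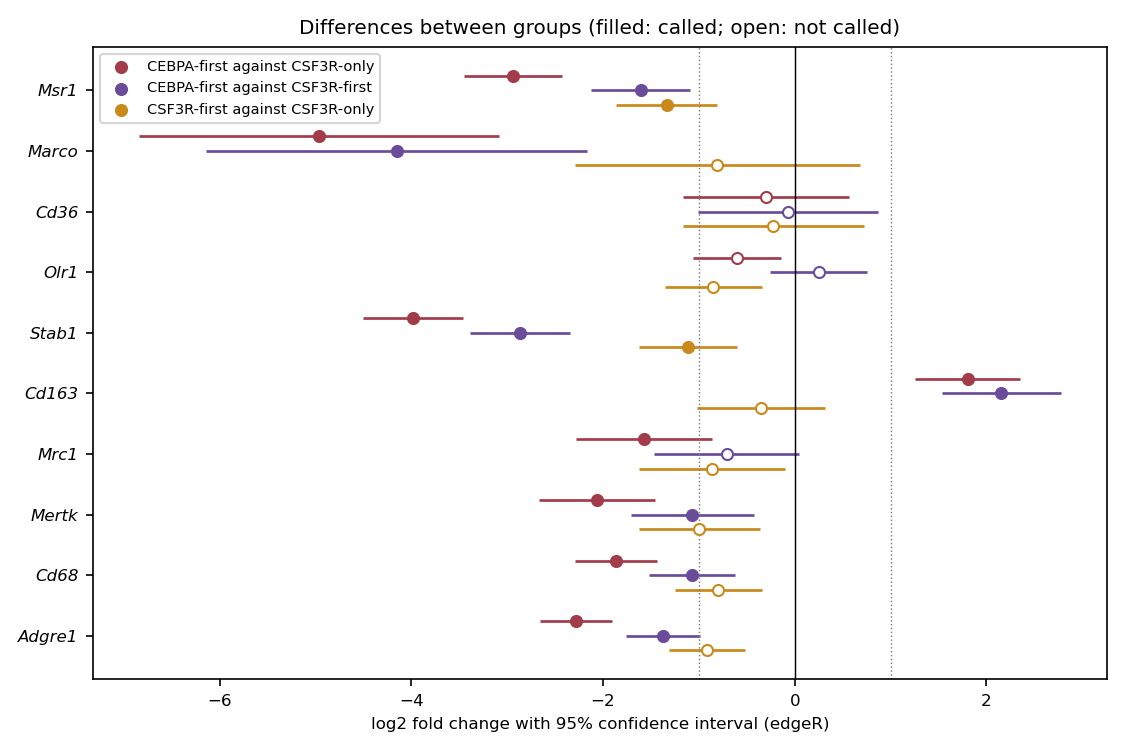
Log2 fold changes (x axis) of the 10 genes (y axis) in the 3 comparisons, with 95% confidence intervals from edgeR; filled points were called, and dotted lines mark the fold threshold of 1. Msr1 and Stab1 have filled points below 0 in all 3 comparisons, Cd163 is the gene with filled points above 0, and Cd36 and Olr1 have open points throughout.

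Msr1 (ENSMUSG00000025044, chr8:39581685-39642673, minus strand) encodes scavenger receptor A, which takes up modified low-density lipoprotein. It was at 111, 113, 96.8 and 109 CPM in CSF3R-only replicates A to D, at 61.6, 32.4 and 34.2 CPM in CSF3R-first replicates A to C, and at 17.4, 11.5, 18.0 and 9.28 CPM in CEBPA-first replicates A to D. No library of any group overlapped with another group, and the lowest CSF3R-only library was 5.37 times the highest CEBPA-first library. The log2 fold change was -2.94 (SE 0.24, edgeR adjusted p = 2.19e-07) against CSF3R-only, which is 7.68-fold lower, and -1.61 (SE 0.24, adjusted p = 0.000216) against CSF3R-first. CSF3R-first cells were 2.52-fold lower than CSF3R-only cells (log2 fold change -1.33, SE 0.24, adjusted p = 0.00114).

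Marco (ENSMUSG00000026390, chr1:120474538-120505024, minus strand), the other class A receptor, binds bacteria and particles. It was rarely counted. CSF3R-only replicates A to D held 149, 151, 63 and 165 reads, or 3.22, 3.02, 1.27 and 2.61 CPM. CSF3R-first replicates A to C held 151, 57 and 12 reads (3.06, 1.15 and 0.190 CPM), and CEBPA-first replicates A to D held 1, 5, 13 and 0 reads (0.0171, 0.0852, 0.2495 and 0 CPM). The 0 of replicate D allows up to 0.0415 CPM, a limit of 3 counts that covers counting error only. Every CEBPA-first library was below every CSF3R-only library, but CEBPA-first replicate C was above CSF3R-first replicate C. The fitted log2 fold change was -4.96 (95% interval -6.84 to -3.08, edgeR adjusted p = 0.000184) against CSF3R-only and -4.15 (-6.14 to -2.17, adjusted p = 0.00287) against CSF3R-first. Its size is poorly fixed at 19 reads over the CEBPA-first group, and alternative settings placed it between -6.25 and -4.45 in the first of these comparisons. In the second they placed it between -5.44 and -3.00, the latter without CSF3R-first replicate A. In CSF3R-first against CSF3R-only Marco was not called (-0.81, adjusted p = 0.372), and the 3 CSF3R-first libraries ran from below the highest CEBPA-first library up to the range of the CSF3R-only libraries.

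Cd36 (ENSMUSG00000002944, chr5:17781690-17888801, minus strand), a class B receptor for long-chain fatty acids and oxidized lipoprotein, was not called in any comparison. Its CPM was 4.97, 5.08, 4.98 and 7.65 in CSF3R-only replicates A to D, 8.80, 1.59 and 4.23 in CSF3R-first replicates A to C, and 4.40, 5.71, 6.08 and 2.40 in CEBPA-first replicates A to D. All groups overlapped, and the CSF3R-first libraries alone spanned 5.54-fold. The log2 fold change against CSF3R-only was -0.30 (95% interval -1.16 to 0.57, edgeR adjusted p = 0.52) in CEBPA-first and -0.22 (-1.16 to 0.72, adjusted p = 0.71) in CSF3R-first cells. Between the mutation orders it was -0.07 (-1.01 to 0.87, adjusted p = 0.906). These intervals reach beyond a fold change of 2 (1 on the log2 scale) only downward.

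Olr1 (ENSMUSG00000030162, chr6:129485244-129507165, minus strand) encodes the oxidized lipoprotein receptor LOX-1. It was at 8.38, 6.21, 9.55 and 9.09 CPM in CSF3R-only replicates A to D, at 6.65, 3.14 and 4.06 CPM in CSF3R-first replicates A to C, and at 6.78, 5.61, 5.12 and 4.44 CPM in CEBPA-first replicates A to D. The upper CSF3R-first and CEBPA-first libraries overlapped with CSF3R-only replicate B. Olr1 had adjusted p-values under the threshold in both comparisons with CSF3R-only, but the log2 fold changes of -0.60 in CEBPA-first (SE 0.21, edgeR adjusted p = 0.0213) and -0.85 in CSF3R-first (SE 0.23, adjusted p = 0.0114) did not reach 1. CEBPA-first and CSF3R-first differed by 0.25 (95% interval -0.26 to 0.75, adjusted p = 0.403). Neither of these lipid-binding receptors had a called difference between the mutation orders.

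**Figure D2:**
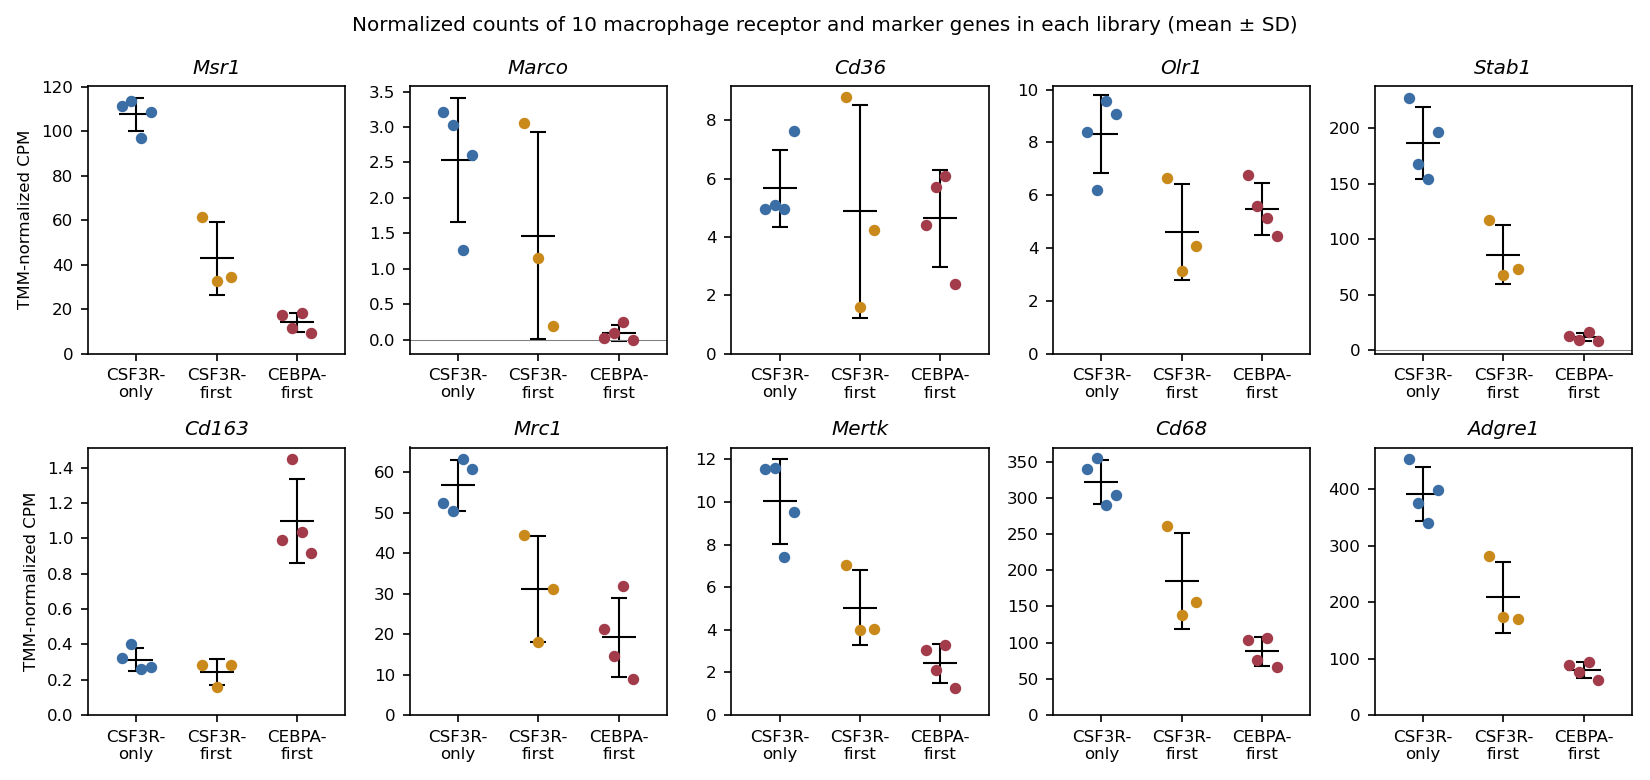
TMM-normalized CPM (y axis, linear) of each of the 10 genes in each library, with the 4 CSF3R-only, 3 CSF3R-first and 4 CEBPA-first libraries side by side; points are libraries in replicate order, the wide bar is the mean and the whiskers are the SD. The CEBPA-first points of Msr1, Stab1, Mertk, Cd68 and Adgre1 lie below every point of both other groups, and those of Cd163 lie above.

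Stab1 (ENSMUSG00000042286, chr14:31139013-31168641, minus strand) encodes stabilin-1, an endocytic receptor of alternatively activated and tissue macrophages, and fell most among the genes of the 10 other than Marco in both comparisons of CEBPA-first cells. Its CPM was 227, 167, 154 and 196 in CSF3R-only replicates A to D and 117, 68.0 and 73.4 in CSF3R-first replicates A to C. In CEBPA-first replicates A to D it was 13.2, 9.61, 16.4 and 8.19. The groups were fully separate, and the lowest CSF3R-first library was 4.14 times the highest CEBPA-first library. The log2 fold change was -3.98 (SE 0.24, edgeR adjusted p = 2.01e-08) against CSF3R-only, which is 15.8-fold lower, and -2.86 (SE 0.24, adjusted p = 2.22e-06) against CSF3R-first. CSF3R-first against CSF3R-only gave -1.11 (SE 0.23, adjusted p = 0.00257). Stab1 shares 112 exonic bases with the neighbouring gene Nt5dc2, which is 1.09% of its exons, and no other overlap with an annotated exon was found among the 10 genes.

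Mrc1 (ENSMUSG00000026712, chr2:14229392-14332057, plus strand) encodes the mannose receptor CD206, a lectin that takes up mannosylated glycoproteins. It was at 52.4, 50.4, 63.4 and 60.7 CPM in CSF3R-only replicates A to D, at 44.4, 18.1 and 31.2 CPM in CSF3R-first replicates A to C, and at 21.3, 14.5, 31.9 and 8.99 CPM in CEBPA-first replicates A to D. Both double-mutant groups lay below CSF3R-only in every library and overlapped with each other. Mrc1 fell 2.98-fold in CEBPA-first against CSF3R-only cells (log2 fold change -1.57, SE 0.33, edgeR adjusted p = 0.000761). It was not called between the mutation orders (-0.71, SE 0.35, adjusted p = 0.109) or in CSF3R-first against CSF3R-only (-0.86, SE 0.35, adjusted p = 0.065). Its CEBPA-first libraries differed by up to 3.55-fold from each other.

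Cd163 (ENSMUSG00000008845, chr6:124304656-124330527, plus strand), which encodes the receptor for hemoglobin bound to haptoglobin, was the gene of the 10 that rose, at a low level. The libraries held 15, 20, 13 and 17 reads in CSF3R-only, 14, 8 and 18 in CSF3R-first, and 58, 85, 54 and 72 in CEBPA-first cells, in replicate order. In CPM these were 0.324, 0.400, 0.262 and 0.269 in CSF3R-only, 0.284, 0.161 and 0.284 in CSF3R-first, and 0.992, 1.45, 1.04 and 0.919 in CEBPA-first. Every CEBPA-first library was at least 2.30 times the highest CSF3R-only library, while the other two groups overlapped. The log2 fold change was 1.80 (SE 0.25, edgeR adjusted p = 2.64e-05) against CSF3R-only, a 3.49-fold rise, and 2.15 (SE 0.29, adjusted p = 8.92e-05) against CSF3R-first. CSF3R-first and CSF3R-only differed by -0.35 (95% interval -1.02 to 0.32, adjusted p = 0.387). Per kilobase, Cd163 stayed far below Mrc1 in CEBPA-first cells, at 0.201 ± 0.0436 against 3.01 ± 1.55 CPM per kb (SD, n = 4).

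Mertk (ENSMUSG00000014361, chr2:128698956-128802894, plus strand), the receptor tyrosine kinase for apoptotic cells, was at 11.6, 11.6, 7.42 and 9.55 CPM in CSF3R-only replicates A to D. It was at 7.06, 4.00 and 4.06 CPM in CSF3R-first replicates A to C and at 3.03, 2.10, 3.28 and 1.28 CPM in CEBPA-first replicates A to D. No groups overlapped, but the gap between CSF3R-only and CSF3R-first was 1.05-fold. Mertk was 4.18-fold lower in CEBPA-first against CSF3R-only cells (log2 fold change -2.06, SE 0.28, edgeR adjusted p = 1.93e-05) and 2.10-fold lower than in CSF3R-first cells (-1.07, SE 0.30, adjusted p = 0.0102). In CSF3R-first against CSF3R-only it was just inside the fold threshold and not called (-0.995, SE 0.29, adjusted p = 0.0155). It was called without CSF3R-only replicate C (-1.12) or replicate D (-1.02), as well as without CSF3R-first replicate A. The related receptors of the same family were not called. Axl was at 4.11, 2.89 and 4.65 CPM and Tyro3 at 1.19, 0.920 and 0.835 CPM in the 3 groups, and the missing calls hold for all 3 comparisons. Axl was short of the fold threshold only, and higher in CEBPA-first than in CSF3R-first cells (0.69, edgeR adjusted p = 0.000811). It was lower in CSF3R-first than in CSF3R-only cells (-0.51, adjusted p = 0.00609).

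Cd68 (ENSMUSG00000018774, chr11:69664213-69666153, minus strand) was at 339, 355, 289 and 303 CPM in CSF3R-only replicates A to D, at 261, 139 and 155 CPM in CSF3R-first replicates A to C, and at 104, 76.0, 107 and 66.3 CPM in CEBPA-first replicates A to D. The 3 groups did not overlap, though CSF3R-first replicate A lay within 1.11-fold of the lowest CSF3R-only library. The fall was 3.65-fold in CEBPA-first against CSF3R-only cells (log2 fold change -1.87, SE 0.20, edgeR adjusted p = 2.27e-06) and 2.10-fold against CSF3R-first cells (-1.07, SE 0.21, adjusted p = 0.00123). CSF3R-first against CSF3R-only gave -0.80 (SE 0.21, adjusted p = 0.00901), short of the fold threshold.

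Adgre1 (ENSMUSG00000004730, chr17:57358691-57483527, plus strand) followed the same order. Its CPM was 454, 375, 340 and 399 in CSF3R-only replicates A to D and 281, 173 and 170 in CSF3R-first replicates A to C. In CEBPA-first replicates A to D it was 89.4, 75.5, 94.3 and 62.9. The groups were separate, with a 3.60-fold gap between the lowest CSF3R-only and the highest CEBPA-first library. Adgre1 fell 4.87-fold against CSF3R-only (log2 fold change -2.28, SE 0.17, edgeR adjusted p = 1.39e-07) and 2.59-fold against CSF3R-first (-1.37, SE 0.18, adjusted p = 7.35e-05). CSF3R-first against CSF3R-only gave -0.91 (SE 0.18, adjusted p = 0.00193). With 4432 or more reads in every library, Cd68 and Adgre1 were the most deeply counted of the 10 genes.

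Levels of different genes were compared as CPM per kilobase of exons. In CSF3R-only cells, Cd68 was the highest at 256 ± 24.3 CPM per kb (SD, n = 4), followed by Adgre1 at 121 ± 14.9. Stab1 (18.1 ± 3.14) and Msr1 (17.0 ± 1.17) came next and overlapped with each other, ahead of Mrc1 at 8.91 ± 0.986. Olr1, Mertk, Cd36 and Marco formed a run from 2.33 down to 1.31 in which each gene overlapped with the next, and Cd163 was the lowest at 0.0575 ± 0.0117. In CSF3R-first cells (n = 3), Stab1, Msr1 and Mrc1 ran from 8.36 to 4.90 CPM per kb and each overlapped with the next. In CEBPA-first cells the order changed below Adgre1. Stab1 went from rank 3 to rank 7, at 1.15 ± 0.360 CPM per kb, under Mrc1, Msr1, Olr1 and Cd36, which overlapped with their neighbours in this order. Cd163 was above Marco in every CEBPA-first library (0.168 to 0.265 against 0 to 0.130 CPM per kb) and below it in every CSF3R-only library.

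Some libraries were at one end of their group in most of these genes. CSF3R-first replicate A exceeded replicates B and C in every gene except Cd163, where replicates A and C both had 0.284 CPM, and its ratio to the lowest library of the group was 1.65 for Adgre1 and 16.2 for Marco. CSF3R-first replicate B was the lowest in 8 of the 10 genes, beside 33.5% of all genes tested. In CEBPA-first cells, replicate C was the highest in 8 genes, beside 23.3% of all genes tested, and replicate D the lowest in all 10, with ratios of the highest to the lowest library of 1.61 for Cd68 and 3.55 for Mrc1. In CSF3R-only cells the ratios of the highest to the lowest library ran from 1.17 for Msr1 to 2.53 for Marco, and replicate C was the lowest in 7 genes, beside 25.6% of all genes tested, and the highest in Olr1 and Mrc1. The summed level of the 23 macrophage and monocyte markers was 20233 CPM in CSF3R-first replicate A, the highest of its group, beside 10693 in the lowest. Lyz2 made up much of this sum, at 5892 to 11985 CPM over the CSF3R-first libraries.

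**Figure D3:**
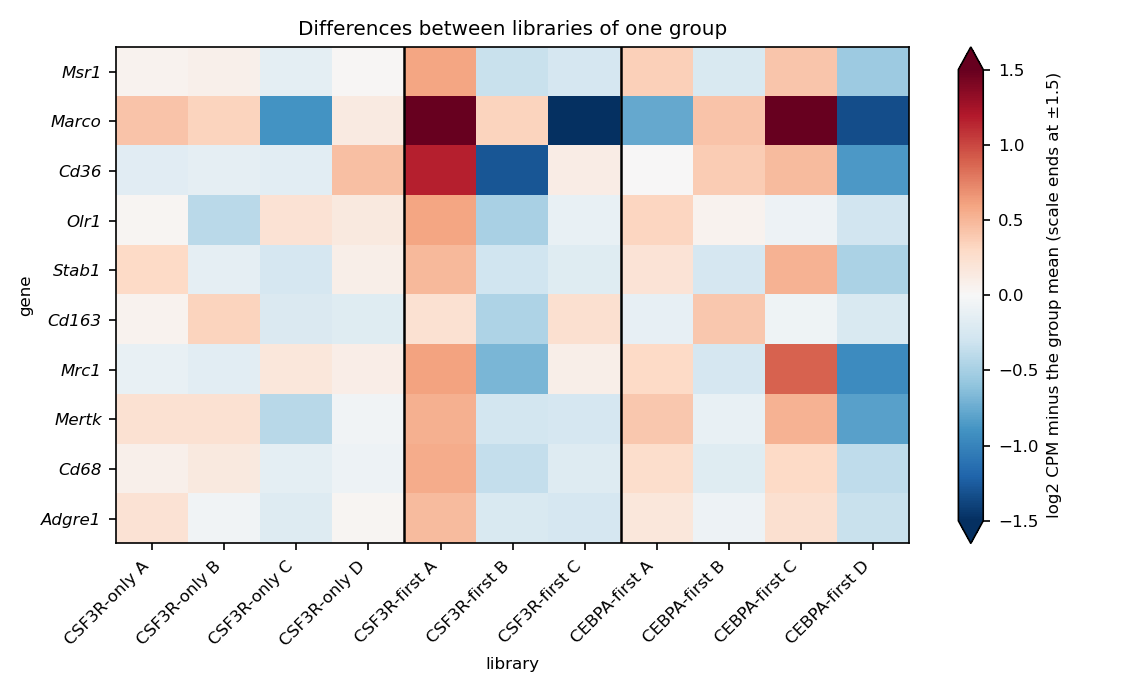
Log2 CPM of each of the 10 genes (rows) in each library (columns) after subtracting the mean of the library's own group; red is above and blue below the group mean, and the colour scale ends at ±1.5. The CSF3R-first replicate A column is red and the CEBPA-first replicate D column is blue in all 10 genes, and the strong colours of Marco rest on small numbers of reads.

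For each gene, the tested genes whose log2 CPM profile over the 11 libraries was most like it were found by the root mean square difference of the profiles after each was centred on its mean, where 0 is an identical profile. Adgre1 was closest to Csf1r, the receptor for the macrophage growth factor (0.0655), then to Tnfrsf1b (0.0699) and Plxna1 (0.0914). Cd68 was closest to Apobec1 (0.0640), the lysosomal protease gene Ctsb (0.0666) and Tmem106a (0.0672). Mertk was close to the complement genes C1qb (0.0920) and C1qc (0.156). Csf1r itself was at 1125, 589 and 223 CPM and C1qb at 77.3, 40.9 and 18.3 CPM in the 3 groups.

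Neighbours of the other 7 genes were found in the same way. Msr1 was nearest to Plbd1 (0.118), Gm9949 (0.134) and Ampd3 (0.139), and Stab1 to Abcc3 (0.120), Pla2g7 (0.129) and Rufy4 (0.171). Mrc1 had Aldoc (0.177), C3ar1 (0.183) and Entpd1 (0.200). Olr1 was most like Lpl (0.227), which encodes lipoprotein lipase, then Cyp4f37 (0.227) and AA414768 (0.230), and Cd36 was most like the fatty acid binding protein gene Fabp4 (0.337), then Fcgrt (0.341) and Pmp22 (0.355). Cd163 had BC064078 (0.289), Serpinf1 (0.321) and Arfgef3 (0.325). No gene came close to Marco, whose nearest were Ip6k3 (0.859), Gm15845 (0.873) and Slamf8 (0.879). With a smaller prior count, 27 of the 30 neighbours were kept, those lost being Ip6k3 and Slamf8 of Marco and AA414768 of Olr1.

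Other genes of the same functions were taken from lists and described by their counts. These counts stand beside 19% of all genes called lower and 8.07% called higher in CEBPA-first against CSF3R-only cells, and a share near these says nothing about a list. Of 11 tested scavenger receptors outside the 10 genes, 8 were called lower and none higher in CEBPA-first against CSF3R-only cells, with a median log2 fold change of -2.02. The largest fall was that of Scarf1, a receptor for modified lipoprotein, from 8.02 to 0.350 CPM (-4.50, edgeR adjusted p = 1.47e-09), and Scara5 had no read in any library. Between the mutation orders 6 of the 11 were called lower, beside 10.3% of all genes, and in CSF3R-first against CSF3R-only 3 were (Colec12, Cd5l and Scarf1), beside 4.53%. The last count was 8 without CSF3R-first replicate A and 1 without CSF3R-only replicate A or B or CSF3R-first replicate B. The list is not uniform, since Scarb1, the high-density lipoprotein receptor, was at 321, 306 and 269 CPM in the 3 groups and was not called in any comparison.

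Genes for apoptotic cell uptake divided in the same comparison of CEBPA-first with CSF3R-only cells. Of 16 tested, 6 were called lower (Gas6, Pros1, Itgb3, Itgb5, Anxa1 and Cd300lf) and none higher, with a median of -0.36. Gas6 and Pros1 encode the bridging proteins of Mertk, and their mean levels were 19.9, 9.50 and 1.78 CPM for Gas6 and 45.3, 18.7 and 6.79 CPM for Pros1 in the 3 groups. Both were called lower in all 3 comparisons. Itgb3, the integrin beta 3 chain, which platelets also use, fell most (-4.12, edgeR adjusted p = 2.63e-09). The engulfment genes Elmo1, Dock1 and Rac1 were not called in any of the 3 comparisons.

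Among 16 tested genes of macrophage lipid handling, 7 were called lower and 3 higher in CEBPA-first against CSF3R-only cells, with a median of -0.75. Apoe (apolipoprotein E) fell most, from 700 to 50.5 CPM (-3.80, edgeR adjusted p = 1.56e-06). The genes that rose were Fabp5 (1.36), the cholesteryl ester hydrolase gene Nceh1 (1.29) and Pparg (1.19), which encodes a lipid-sensing nuclear receptor. Of 14 macrophage transcription factors tested, 6 were called lower, among them Maf, Spic, Id3, Mitf and Cebpb, and 1 higher (Tfec, 1.15). Spi1, which encodes PU.1, was at 664, 503 and 341 CPM in the 3 groups and was short of the fold threshold (-0.96, adjusted p = 1.34e-06), and Spic fell most (-3.74) at 1.54 to 0.115 CPM.

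The genes of alternative activation, the state in which Cd163, Mrc1 and Stab1 are used as markers, moved both ways. Of 10 tested, 5 were called higher in CEBPA-first against CSF3R-only cells (Chil3, Mgl2, Clec10a, Il10 and Socs2) and 2 lower, with a median of 0.99. Socs2, a target of cytokine signalling, rose most (3.97, edgeR adjusted p = 1.95e-09), and Retnla fell most (-4.16, adjusted p = 0.00124) from 0.396 CPM. Mgl2 and Clec10a, which encode galactose-binding lectins, rose to 7.07 and 7.51 CPM from 1.03 and 1.53 CPM. Between the mutation orders 5 were called higher (Mgl2, Clec10a, Il10, Ccl24 and Socs2), beside 2.57% of all genes, with a median of 0.69.

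Markers of the macrophage lineage and of other cells that the gate or culture could hold were counted in the same way. Of 20 tested macrophage and monocyte markers outside the 10 genes, 15 were called lower and none higher in CEBPA-first against CSF3R-only cells (median -2.12), and Cx3cr1 fell most (-4.46). Their summed level over 23 genes was 21229 to 27481, 10693 to 20233 and 6649 to 9675 CPM in the libraries of the 3 groups. Lyz2 and F13a1 made up most of this sum. Their group means were 17210, 8127 and 2315 CPM for Lyz2 and 2576, 3124 and 4006 CPM for F13a1. The monocyte genes Ly6c2, F13a1 and Ms4a6c were among the 5 not called, together with Fcgr1 and Lgals3. These 5 did not share a direction. Fcgr1 (0.65, edgeR adjusted p = 8.14e-05), F13a1 (0.64, adjusted p = 0.00146) and Ly6c2 (0.32, adjusted p = 0.043) were higher, short of the fold threshold. Lgals3 (-0.69) and Ms4a6c (-0.45) were lower. Vsig4, Clec4f and Folr2, markers of resident tissue macrophages, were too low to be tested, and Clec4f was at 0 in every library. The part of macrophage number in the fall of the 7 genes was not tested.

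Neutrophil markers were also lower in CEBPA-first against CSF3R-only cells, with 9 of 12 called lower, led by Ltf (-5.65), and 1 called higher, Elane (1.27), a gene of early granule formation. Their summed level was 26339 to 31592, 16903 to 26847 and 10227 to 12019 CPM in the 3 groups. All 8 megakaryocyte and platelet markers were called lower (Gp6, -6.78), with summed levels of 911 to 1236, 348 to 543 and 113 to 156 CPM. Among erythroid markers 5 of 7 were called lower (Hbb-bs, -5.01), with sums of 225 to 331, 98.8 to 287 and 48.9 to 74.1 CPM, and among eosinophil markers 4 of 7 (Ear6, -5.07), with sums of 231 to 349, 57.0 to 130 and 29.0 to 35.8 CPM. Their part in the differences of the 10 genes was not tested.

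Other lists are given by the same counts, beside the same 19% and 8.07% of all genes. Dendritic cell markers had 4 called lower (Zbtb46, -2.35) and 1 higher (Flt3, 1.495) of 8, at 314 to 429, 167 to 288 and 97.8 to 154 CPM in the 3 groups. Mast cell and basophil markers had 2 lower (Tpsb2, -2.21) and 1 higher (Fcer1a, 1.15) of 8, shares near those of all genes, at 1676 to 2578, 1074 to 1331 and 1255 to 1684 CPM. Endothelial markers had 2 lower of 6 (Flt1, -3.26, and Lyve1), at 142 to 152, 143 to 162 and 167 to 187 CPM. Pecam1 made up most of these sums, with group means of 128, 136 and 159 CPM, and Cdh5 and Emcn were too low to be tested. Stromal and fat cell markers had 1 lower (Col1a1, -1.13) and 1 higher (Col1a2, 4.34) of 4 at sums of 0.954 to 5.46 CPM, with Cxcl12 at 0 in every library, and 1 of them was called without CSF3R-only replicate A or CEBPA-first replicate D. B and T cell markers had 1 lower of 2 (Cd79a, -2.21) at sums of up to 3.71 CPM, with Cd3e and Cd8a at 0 in every library.

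**Figure D4:**
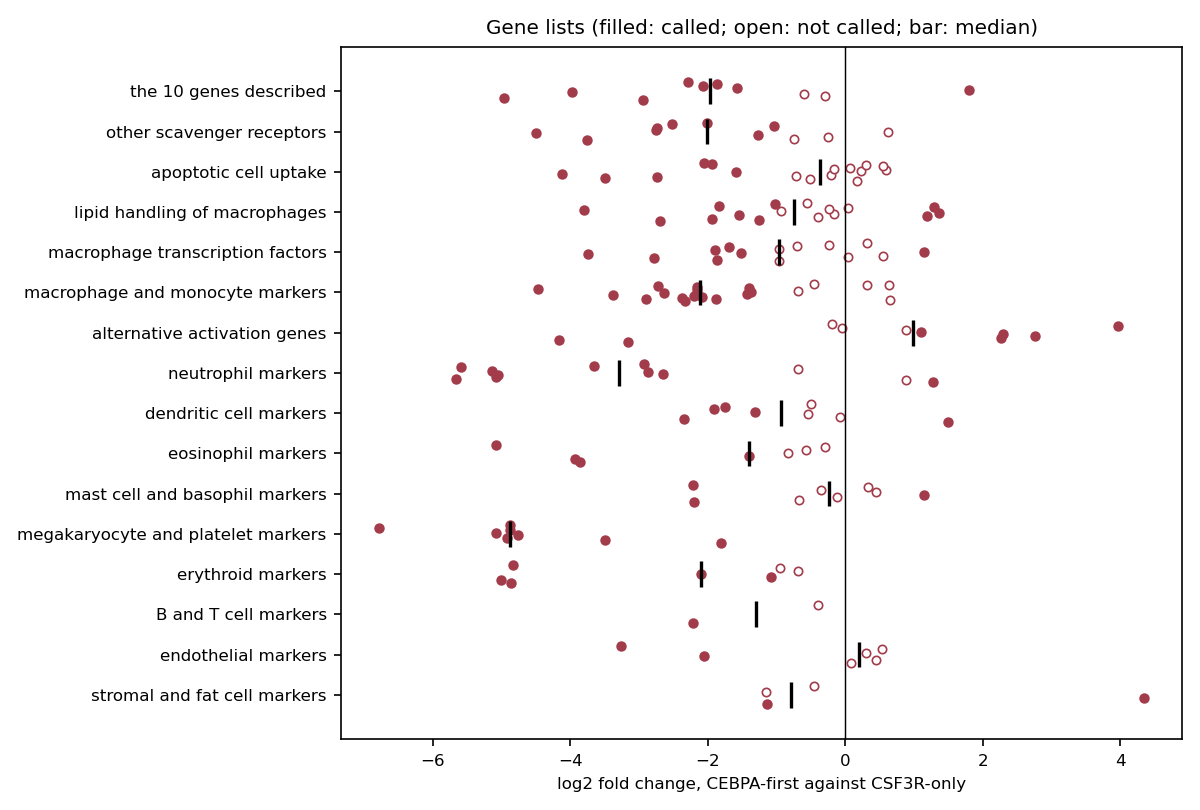
Log2 fold change in CEBPA-first against CSF3R-only cells (x axis) of the 10 genes and of the tested genes of each list (rows, points spread for legibility); filled points were called, and the bar is the median. The medians of the 10 genes (-1.97), the other scavenger receptors (-2.02) and the macrophage and monocyte markers (-2.12) lie close together, and alternative activation genes (0.99) and endothelial markers (0.19) have medians above 0.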

How the data were processed

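RNA was extracted from the sorted and cultured cells, and libraries were made from low-input RNA and sequenced as single reads. The authors trimmed the reads with Trimmomatic and aligned them with STAR, and the submitters' processing notes also list DESeq2 and the build mm10. They deposited raw read counts per gene, without normalization. The counting tool, the annotation and the use of strand are not given in the sources used here.

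TMM normalization and filterByExpr were applied to the counts, which were fitted for the 3 groups together in edgeR 4.0.16 (R 4.3.3) with its quasi-likelihood test and without covariates. P-values were adjusted by Benjamini-Hochberg over the 15703 genes tested, and a call needed an adjusted p under 0.05 and a log2 fold change of at least 1 in size. SEs were derived from the fold change and edgeR's F statistic, and a prior count of 2 went into log2 CPM. A count of 0 allows up to 3 counts, and such limits cover counting error only. The fit was tested on simulated counts. Replicates of a group differed beyond counting noise in every pair (chi-square over its degrees of freedom, 9.11 to 99.1).

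Positions and exon lengths are from GENCODE M21 (GRCm38). No stretch of at least 100 bp at 97% identity with another gene was found by BLAST 2.17.0, except for the exons Stab1 shares with Nt5dc2. Figures were drawn with matplotlib 3.10.9.

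The 10 genes and the 15 lists were chosen with earlier results of these data known. Named are the 10 genes, the gene with the largest called rise and fall of each list in CEBPA-first against CSF3R-only cells, genes at 0 in every library, the 3 genes most like each of the 10, and Cebpa and Csf3r. Other list members, and all genes of counts of 5 or fewer, were named after their values were seen. Of the list members, 1 erythroid marker was not matched. Some genes that this rule names are not reported here. Alternatives were DESeq2 1.42.0, other normalizations, count filters and thresholds, a replicate block, pairs of groups fitted alone, and each library left out. Supplementary values were not used.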

Additional observations from a re-analysis of the deposited data

Results flagged for a closer look

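Cd36 stood at 7.65 CPM in CSF3R-only replicate D, far above the other 3 libraries of its group, which lay between 4.97 and 5.08 CPM. The gap to the nearest library exceeded, as a share of the group's range, Dixon's 95% critical value for 4 samples. The 10 genes in the groups of 4 libraries gave 20 such checks, of which this was the only one past the limit, and about 1 in 20 passes it by chance.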

How the results depend on the processing

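Calls among the 10 genes in CEBPA-first against CSF3R-only cells stayed at 8 with any single library left out. With 1 library left out they ranged from 5 to 8 in CEBPA-first against CSF3R-first and from 1 to 8 in CSF3R-first against CSF3R-only. Over all genes these ranges were 3893 to 4433, 1723 to 2191 and 819 to 1435 in the 3 comparisons. Counts of called list genes moved by over 1.5 times in 42 checks with a library left out and did not in 453, and moved in 55 and did not in 395 under other settings.

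By adjusted p alone, 11314, 7578 and 6703 of all genes passed, and 6 of the 10 genes in CSF3R-first against CSF3R-only. With glmTreat, which tests against the fold threshold, 2495, 799 and 201 of all genes passed, and 7 of the 10 genes in CEBPA-first against CSF3R-only (Mrc1 being lost, adjusted p = 0.0827), 3 between the mutation orders and 0 in CSF3R-first against CSF3R-only, where edgeR's quasi-likelihood test called 2 and passed 6 without the fold threshold. With at least 10 counts in every library, 1219 genes were called between the mutation orders and 566 in CSF3R-first against CSF3R-only, fewer genes being tested; Marco and Cd163 then had no value. The log2 fold change of Cd36, which was not called, turned positive without CEBPA-first replicate D (0.15) or CSF3R-first replicate A (0.65) between the mutation orders, where it ranged from -0.49 to 0.65 over the libraries left out, and without CSF3R-first replicate B (0.19) against CSF3R-only, where it ranged from -0.95 to 0.19; the cause was not tested.

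Replicate letters are shared by the groups, and nothing in the labels says what a letter shares. Not every pair of same-lettered libraries correlated over 0.1, so the libraries were treated as unpaired. The deviations of same-lettered libraries correlated at -0.11 to 0.36, 7 of 10 pairs were over 0.1, and a library was closest to its own letter in 12 of 20 checks. With the replicate letter as a block, Cd36 was at 0.0831 between the mutation orders and 4 of the 10 genes were called in CSF3R-first against CSF3R-only (Mrc1 and Mertk in addition, at -1.07 and -1.16). Mertk and Cd68 were then short of the threshold between the mutation orders, at -0.95 and -0.97. Depth limits Marco and Cd163, which rest on 19 and 269 reads in the CEBPA-first group.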
